A study of Mus musculus with 14 samples.

Results

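Cxcl1, Cxcl2 and Cxcl3 encode the chemokines that draw neutrophils through the receptor CXCR2, and all 3 genes were found by symbol among 19940 genes measured by RNA sequencing. The cells were monocyte-derived macrophages sorted from the central nervous system of mice with experimental autoimmune encephalomyelitis, which models multiple sclerosis, when disease was at its height. The hosts were lethally irradiated and were rebuilt with an equal mixture of marrow from donors of 2 genotypes, so each host could hold macrophages of both. Macrophages named mCAT (7 libraries) carried the CD45.2 allele, a tamoxifen-inducible Cre recombinase under the Ccr2 gene on 1 allele (CCR2creERT2/+) and 1 allele of a Cre-dependent catalase directed to mitochondria (mcat lsl/wt), an enzyme that breaks down hydrogen peroxide. Macrophages named wt (7 libraries) carried CD45.1 and neither transgene was named for them. The labels give tamoxifen as the treatment of both. The genotypes therefore also differ in the CD45 allele, and catalase is switched on only where Ccr2 has driven the Cre. The labels give neither host age nor the dose of tamoxifen.

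The genes were selected on measured values of these libraries: the difference of Cxcl1 between mCAT and wt, which passed the paired test over all genes. The mCAT against wt values of the 3 genes are therefore given as a description with no test. The library codes begin with C1 or C2, and the labels do not say what this marks. C2 covers 6 libraries (mCAT 5 to 7 and wt 5 to 7) and C1 covers 8 (mCAT 1 to 4 and wt 1 to 4). In addition, 6 pairs of mCAT and wt libraries share the whole first part of the code, called the stem here. mCAT 3 and wt 1 have no partner. Levels are given as normalised counts, which were recovered from the log2-scale values the authors deposited and are comparable between libraries. Libraries were estimated to hold between 27.6 and 47.0 M reads for mCAT and between 16.6 and 42.6 M for wt. The lowest estimate, that of wt 7, was the least sure, since the smallest share of its low counts lay near whole numbers (57.2%). At these depths the 3 genes were well above the counting limit. The macrophage markers Lyz2, Cd68, Itgam and Adgre1 were detected in all libraries, and the summed level of 12 macrophage markers ran from 1059540 to 3755750 in mCAT and from 1191840 to 4691890 in wt. In such bulk samples, more cells of a type and more RNA per cell cannot be told apart.

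The 3 proteins belong to the ELR group of CXC chemokines, named for a short motif before the first cysteines, and they recruit neutrophils mainly through CXCR2. Their genes lie close together and are classic targets of NF-kappaB: interleukin-1, tumour necrosis factor and bacterial products raise their transcription within a short time. Their mRNAs carry AU-rich stretches in the 3′ untranslated region that are read by decay factors such as tristetraprolin (Zfp36). Interleukin-17 is known for prolonging the life of Cxcl1 mRNA. In encephalomyelitis, these chemokines are known from glia, endothelium and myeloid cells and accompany the entry of neutrophils.

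The 3 genes sit on the forward strand of chromosome 5. In RefSeq annotation of the mouse build GRCm38.p6, Cxcl3 (ENSMUSG00000029379) spans chr5:90786101-90788093, Cxcl1 (ENSMUSG00000029380) chr5:90891245-90893121 and Cxcl2 (ENSMUSG00000058427) chr5:90903899-90905938. The submitters' processing notes name a later build, GRCm39, so these coordinates serve only to locate the sequences. The 150 bases before each annotated start are shown because the NF-kappaB element that the genes share lies there. Capitals mark GGGAATTTCCC, the longest run of letters common to the 3 windows, which holds a textbook kappaB site, and after it the TATA-like element ATAAAA. The windows are chr5:90891095-90891244 for Cxcl1, chr5:90903749-90903898 for Cxcl2 and chr5:90785951-90786100 for Cxcl3.
Cxcl1: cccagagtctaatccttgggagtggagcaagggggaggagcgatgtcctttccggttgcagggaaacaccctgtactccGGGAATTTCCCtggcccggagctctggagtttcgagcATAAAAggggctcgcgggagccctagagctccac
Cxcl2: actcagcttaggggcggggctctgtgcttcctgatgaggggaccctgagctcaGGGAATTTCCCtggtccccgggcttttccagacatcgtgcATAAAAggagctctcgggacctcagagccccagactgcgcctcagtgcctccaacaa
Cxcl3: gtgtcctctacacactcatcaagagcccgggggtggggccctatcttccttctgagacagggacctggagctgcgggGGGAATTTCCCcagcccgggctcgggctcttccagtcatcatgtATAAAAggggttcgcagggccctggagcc
GGGAATTTCCC begins 71 bases before the start of Cxcl1, 97 before that of Cxcl2 and 73 before that of Cxcl3. Its presence in all 3 follows from how it was found. Searched on both strands in the 250 bases before the start, it was in 14 of 32851 mouse promoters (0.0426%). ATAAAA was found once in each, 34, 57 and 29 bases before the starts of Cxcl1, Cxcl2 and Cxcl3, and in 17.0% of all promoters. The AP-1 element TGANTCA was in none of the 3 windows and in 6.75% of promoters. The hypoxia element core ACGTG occurred once for Cxcl1, not for Cxcl2 and 2 times, overlapping on opposite strands, for Cxcl3, and it was in 16.6% of promoters. A match of letters is a description and not evidence of binding.

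**Figure D1:**
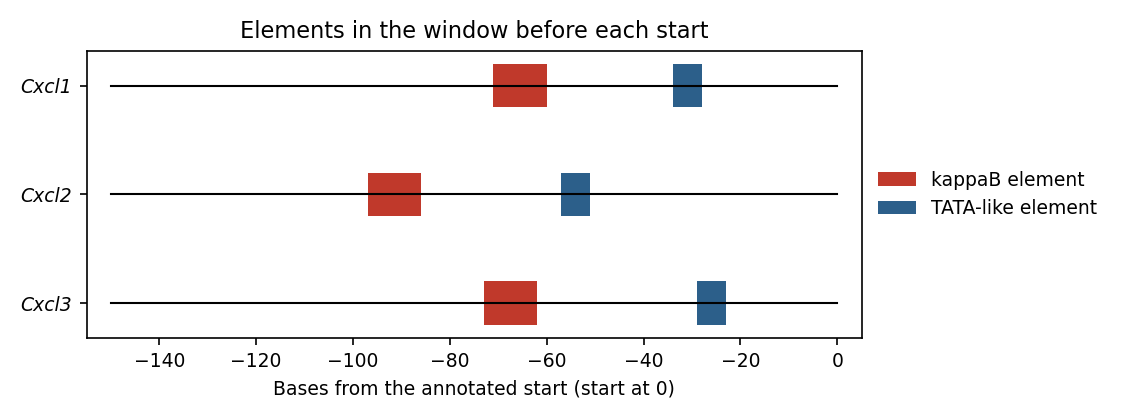
Positions of the kappaB element (red) and the TATA-like element (blue) in the 150 bases before the annotated start of each gene; the x axis gives bases from the start. Each gene has 1 of each, with the kappaB element at 71 (Cxcl1), 97 (Cxcl2) and 73 (Cxcl3) bases before the start.

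The AU-rich part of the GENCODE transcripts differed between the genes. The pentamer ATTTA occurred 7 times in the 592 bases of the Cxcl1 3′ untranslated region, 11 times in the 734 bases of that of Cxcl2 and 5 times in the 645 bases of that of Cxcl3. In the first 400 bases of that region, where genes can be compared, Cxcl1 had 6 and Cxcl2 had 8. Only 0.235% and 0.0207% of 14475 genes with a region that long had at least as many. Cxcl3 had 2, and 16.9% of genes had 2 or more. The 30 bases of each gene with the densest ATTTA are shown, with ATTTA in capitals, because decay factors read AU-rich stretches. Whether they read these windows was not measured, and a match of letters is not evidence of binding or decay.
Cxcl1: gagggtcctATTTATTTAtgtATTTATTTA
Cxcl2: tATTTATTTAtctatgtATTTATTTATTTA
Cxcl3: caagatggcatcttATTTAatgtttATTTA
These windows begin 79, 123 and 181 bases after the stop codon and hold 4, 5 and 2 copies of ATTTA in Cxcl1, Cxcl2 and Cxcl3. The coding sequences were alike: 89.7% of aligned bases were identical between Cxcl2 and Cxcl3, 75.7% between Cxcl1 and Cxcl2 and 72.7% between Cxcl1 and Cxcl3. Cxcl1 shared none of its 923 possible 31-base words with any other gene, so reads of that length or more point to it alone. Cxcl2 and Cxcl3 shared 80 words with each other, with an identical run of 110 bases. Reads of that run could be divided between them in error, and since Cxcl2 was far more abundant, a small misplaced fraction of it could bear on Cxcl3; this was not tested.

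Cxcl1 was high in mCAT and moved with the library code. In mCAT, Cxcl1 had 6288, 4615 and 7137 normalised counts in the C2 libraries mCAT 5, 6 and 7. It had 729.9, 1207, 1167 and 683 in the C1 libraries mCAT 1, 2, 3 and 4. In wt, it had 729.4, 1517 and 1993 in the C2 libraries wt 5, 6 and 7, and 177, 221, 206 and 80.6 in the C1 libraries wt 1, 2, 3 and 4. Within C2 every mCAT library lay above every wt library, and the same held within C1. Over both, the genotypes overlapped, because the C2 wt libraries reached the level of the C1 mCAT libraries. How many of all genes separate by genotype within C2 and within C1 was not counted. Cxcl1 averaged 3118 ± 2815 normalised counts in mCAT and 703 ± 761 in wt (SD, n = 7 each). Within C2 it averaged 6014 ± 1283 in mCAT and 1413 ± 638 in wt (SD, n = 3 each). Within C1 it averaged 947 ± 279 in mCAT and 171 ± 63.0 in wt (SD, n = 4 each). The ratio of means, mCAT over wt, was 4.26 within C2 and 5.53 within C1.

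Between partner libraries of 1 stem, Cxcl1 was higher in mCAT in 6 of 6 pairs. The ratio was 8.62, 3.04 and 3.58 in the C2 stems C2_1, C2_2 and C2_4, and 3.31, 5.86 and 8.47 in the C1 stems C1_2, C1_3 and C1_5, with a median of 4.72. The paired difference on the deposited log2 scale was 1.96 (SE 0.16, 12 libraries), and without pairing it was 1.99 (SE 0.66, 14 libraries). That scale compresses low counts, so it understates folds of weakly expressed genes. The residual SD of Cxcl1 was 1.38 after removing genotype alone, above that of 99.8% of the 12096 genes tested. In the paired fit it was 0.39, still above that of 95.9% of genes. The selection of the 3 genes rests on this contrast, in which 1 of them, Cxcl1, passed an adjusted p of 0.05 with pairing by stem, against 0.314% of all genes. Without pairing none of the 3 passed, against 0.198% of all genes.

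**Figure D2:**
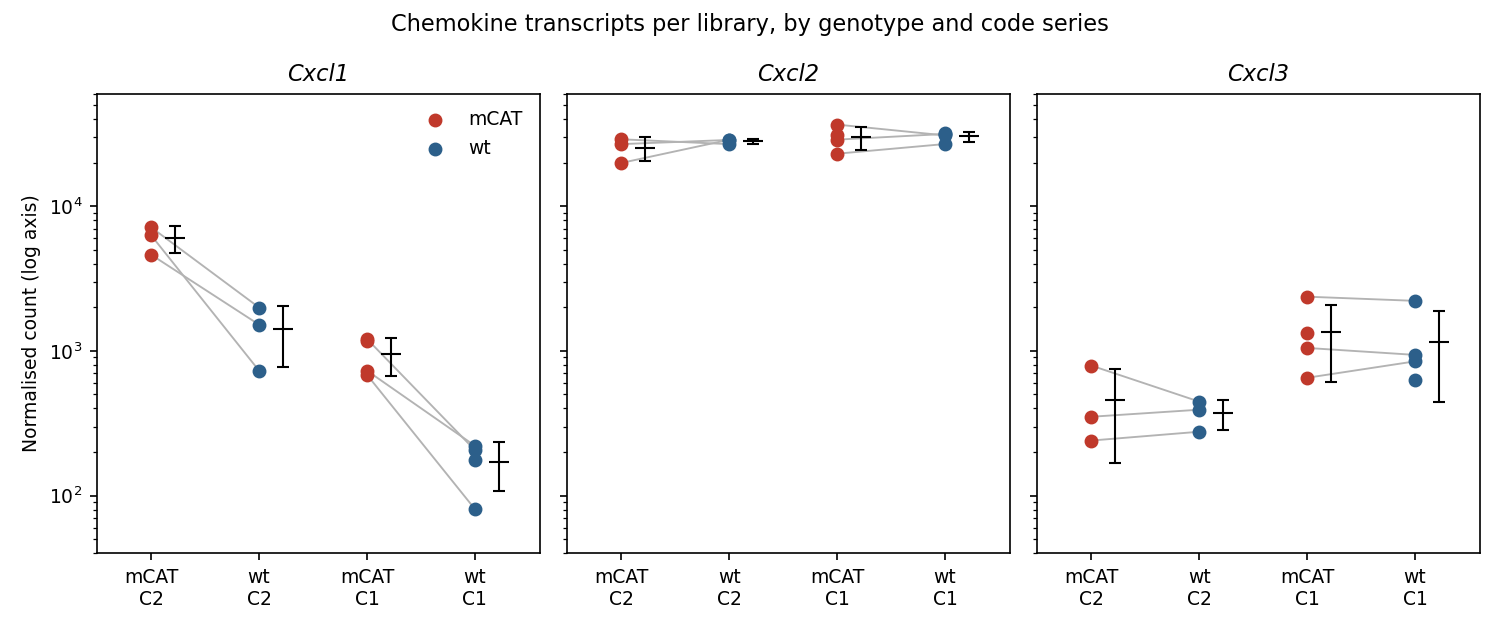
Normalised counts (log axis) of Cxcl1, Cxcl2 and Cxcl3 in each of the 14 libraries (points, mCAT red, wt blue), by genotype and code series; grey lines join libraries of 1 stem, and black marks give mean and SD beside the points. Cxcl1 is highest in mCAT C2 (4615 to 7137) and lowest in wt C1 (80.6 to 221), with mCAT C1 and wt C2 overlapping between them, while Cxcl2 stays between 19866 and 36594 in all libraries.

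Cxcl2 was the most abundant of the 3 per kilobase in every library, and it varied least. It had 28959.5, 19866 and 26819.5 normalised counts in mCAT 5, 6 and 7, and 23019, 28800.1, 31018 and 36594 in mCAT 1, 2, 3 and 4. In wt it had 26813, 28749 and 28657 in wt 5, 6 and 7, and 31937, 26855, 31529 and 30804 in wt 1, 2, 3 and 4. The mCAT libraries spread on both sides of the wt libraries, so the genotypes overlapped throughout. Cxcl2 averaged 27868 ± 5428 in mCAT and 29335 ± 2123 in wt (SD, n = 7 each). The difference was -0.09 on the log2 scale (SE 0.13), or -0.10 (SE 0.10) between partners, with mCAT higher in 2 of 6 pairs. Per kilobase of transcript, Cxcl2 stood above 98.8% to 99.2% of the genes tested, depending on the library.

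Cxcl3 had a wide spread, and its values overlapped between the genotypes. It had 791, 239.97 and 350.4 normalised counts in mCAT 5, 6 and 7, and 1047, 651, 1324 and 2367 in mCAT 1, 2, 3 and 4. In wt it had 446, 276 and 392.1 in wt 5, 6 and 7, and 629.8, 938, 846 and 2215 in wt 1, 2, 3 and 4. The partner libraries mCAT 4 and wt 4 held the highest value of their genotype, while mCAT 6 and wt 6, also partners, held the lowest. Cxcl3 averaged 967 ± 723 in mCAT and 820.4 ± 660.4 in wt (SD, n = 7 each). The paired log2 difference was 0.06 (SE 0.12), and mCAT was higher in 3 of 6 pairs. The unpaired difference was 0.18 (SE 0.44), and it was -0.06 without mCAT 4, the library with the highest value. The paired difference was -0.07 without the stem C2_1.

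**Figure D3:**
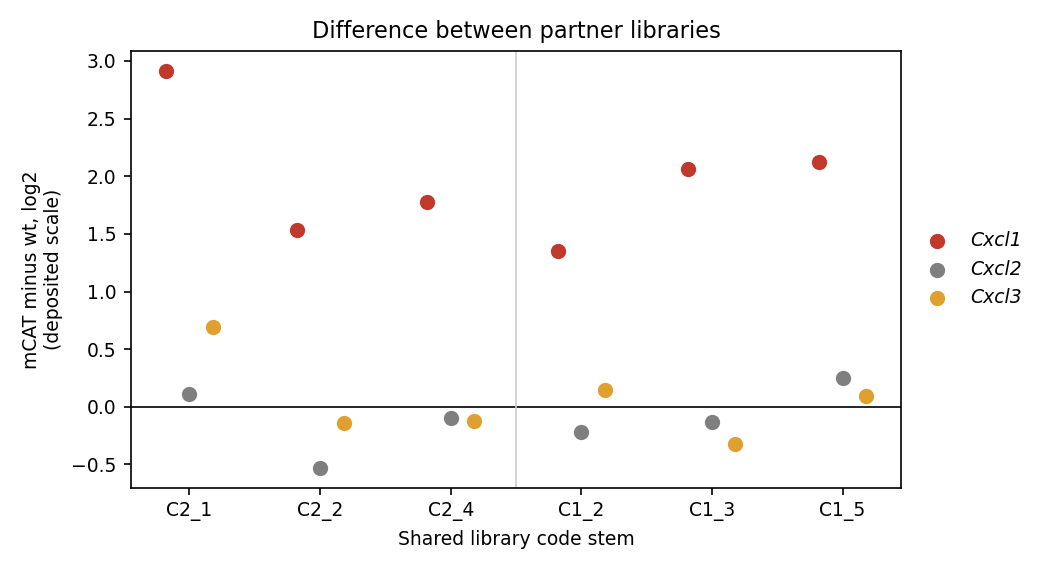
Difference between the mCAT and the wt library of each stem (y axis, log2, deposited scale) for the 3 genes, with the C2 stems on the left and the C1 stems on the right. All 6 points of Cxcl1 lie above 0, from 1.35 to 2.92, and the points of Cxcl2 and Cxcl3 fall on both sides of 0.

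The C2 libraries were compared with the C1 libraries over all genes, with genotype as a covariate and stem partners treated as correlated. This contrast was not the one on which the genes were chosen, though earlier results of these data were known at that choice. In it, 328 of 12096 genes passed an adjusted p of 0.05 (2.71%), with 1.6% higher and 1.11% lower in C2, and 2 of the 3 chemokines passed, in opposite directions. Cxcl1 was higher in C2: it averaged 3713 ± 2678 normalised counts in C2 (SD, n = 6) and 559 ± 455 in C1 (SD, n = 8). Its log2 difference was 2.44 (SE 0.25; limma adjusted p = 5.14e-05), the fourth smallest p of all genes. In mCAT the ratio of C2 over C1 was 6.35 and in wt it was 8.26, with no overlap between C2 and C1 in either genotype. The share of all genes without such overlap was not counted.

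Cxcl3 was lower in C2, at 416 ± 199 normalised counts (SD, n = 6), against 1252 ± 679 in C1 (SD, n = 8). Its log2 difference was -1.27 (SE 0.30; limma adjusted p = 0.0261). The mean in C1 was 2.93 times that in C2 in mCAT and 3.12 times in wt. All C1 libraries of wt lay above all C2 libraries of wt, and the share of all genes doing so was not counted. In mCAT, however, the C2 library mCAT 5 (791) lay above the C1 library mCAT 2 (651). The Cxcl3 call was not firm: it ended when mCAT 3 (adjusted p = 0.0613), mCAT 6 (0.0591), mCAT 7 (0.0559) or wt 6 (0.0519) was left out. With 1 value per stem, 3 stems of C2 and 3 of C1, its difference was -1.39 with a limma adjusted p of 0.188, while that of Cxcl1 was 2.53 with an adjusted p of 0.00948.

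Cxcl2 averaged 26644 ± 3459.5 in C2 (SD, n = 6) and 30069.5 ± 3987 in C1 (SD, n = 8). Its log2 difference was -0.18 (SE 0.15; limma adjusted p = 0.605), with a 95% interval of -0.48 to 0.12, so a change of the size seen for Cxcl1 or Cxcl3 lay outside it. What C1 and C2 stand for (a date, an experiment or a group of hosts) is not given, and these cannot be told apart. The 10 most abundant genes took 16.1% to 26.5% of the counts in C2 and 12.1% to 15.8% in C1, and the part of this in the results was not tested. With libraries shifted to the same median, Cxcl1 and Cxcl3 kept their calls. These shifts ran only from -0.059 (mCAT 6) to 0.058 (wt 4) on the log2 scale. This setting therefore changed the values little and does not test the part of the most abundant genes.

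The genotype difference of the 3 genes was compared between C2 and C1. The log2 difference between mCAT and wt in C2 minus that in C1 was 0.18 for Cxcl1 on the deposited scale (SE 0.34; limma adjusted p of the interaction = 0.9999). Its direction was not fixed: it was -0.30 on the scale of log2(normalised count + 1), -0.02 without mCAT 5 and -0.21 without wt 5. The differences for Cxcl2 and Cxcl3 were -0.14 (SE 0.20) and 0.02 (SE 0.40). None of the 3 and none of 12096 genes (0%) passed for this interaction, and 339 genes had an unadjusted p under 0.05. The interval for Cxcl1, -0.48 to 0.84, leaves room for a difference in either direction.

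The order of the 3 genes by level depended on the library. Per kilobase of transcript, Cxcl2 exceeded Cxcl1 by 3.23 to 3.96 times in mCAT C2, by 12.4 to 31.6 times in wt C2, by 20.5 to 46.0 times in mCAT C1 and by 104.5 to 328 times in wt C1. Cxcl2 was the highest in all 14 libraries. Cxcl1 exceeded Cxcl3 in all 6 C2 libraries, by 8.47 to 21.7 times in mCAT and by 1.74 to 5.86 times in wt. In the C1 libraries of wt, Cxcl3 exceeded Cxcl1 by 3.34 to 25.8 times. In the C1 libraries of mCAT, the ratio of Cxcl3 to Cxcl1 ran from 0.506 to 3.25, with Cxcl1 the higher in mCAT 2 only. Transcripts of 953 bases for Cxcl1, 1109 for Cxcl2 and 1016 for Cxcl3 were used for these ratios. Cxcl1 per kilobase ranked above 95.2% to 96.6% of genes in mCAT C2, and above 40.02% to 56.6% of genes in wt C1.

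**Figure D4:**
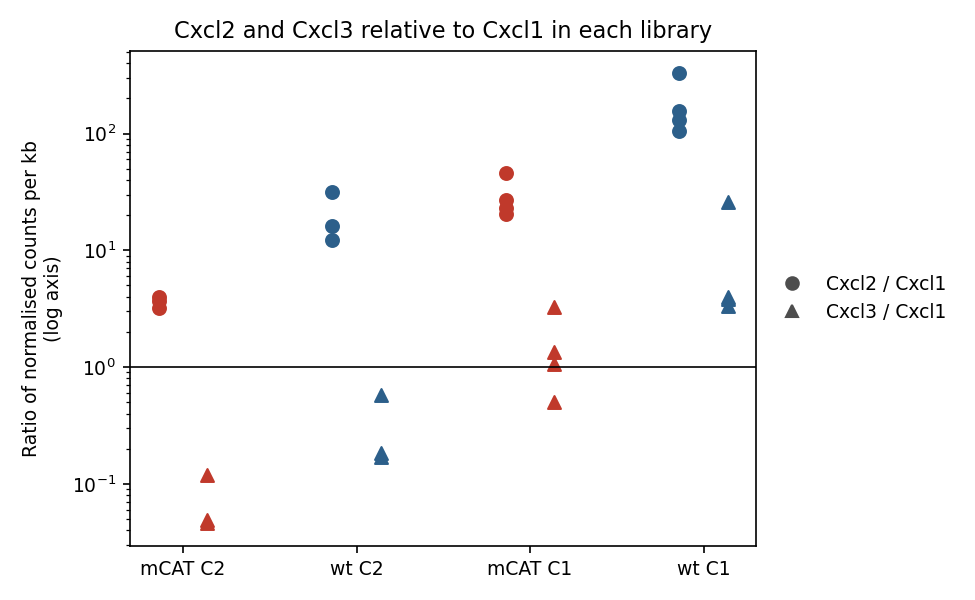
Ratio of Cxcl2 to Cxcl1 (circles) and of Cxcl3 to Cxcl1 (triangles) in normalised counts per kilobase in each library (log axis; mCAT red, wt blue). The ratio of Cxcl2 to Cxcl1 is lowest in mCAT C2 (3.23 to 3.96) and highest in wt C1 (104.5 to 328), and the ratio of Cxcl3 to Cxcl1 lies below 1 in all C2 libraries.

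A correlation among the 3 genes across libraries is not given. Cxcl1 separates the libraries of each genotype into a C2 and a C1 cluster of 3 or 4, too few for a relation to be tested within a cluster.

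Other ligands and receptors of the same group were low on average. The most abundant, the receptor gene Ackr1, averaged 57.7 ± 69.9 in mCAT and 73.8 ± 104 in wt (SD, n = 7 each). Its values ran from 0 to 200 in mCAT and from 5.22 to 302 in wt, while Cxcl1 ran from 80.6 to 221 in wt C1. Cxcl5, another CXCR2 ligand, was listed at 0 in all mCAT libraries and reached 1.92 normalised counts in wt. Ppbp, the platelet ligand, averaged 20.8 ± 18.6 in mCAT and 11.1 ± 6.90 in wt (SD, n = 7 each). The receptor gene Cxcr1 stayed at or under 8.43 in mCAT and 8.45 in wt. Cxcr2 averaged 21.1 ± 20.6 in mCAT and 15.6 ± 14.7 in wt, and it was lower in C2 (0 to 9.37) than in C1 (11.2 to 50.7; log2 difference -0.68, SE 0.16, limma adjusted p = 0.0261), a call that ended when mCAT 3, mCAT 7, wt 6 or wt 7 was left out (adjusted p up to 0.0613). Of the 10 neighbouring genes listed, 6 were measured and 3 passed the filter. Areg, an EGF-receptor ligand, was higher in C2 (log2 difference 1.02, SE 0.23, limma adjusted p = 0.0203). Neither Pf4, a platelet chemokine (0.79, SE 0.27), nor Mthfd2l, a mitochondrial folate enzyme (0.18, SE 0.22), passed. For neighbours, none passed between the genotypes.

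Several cytokines that induce these chemokines were abundant in the macrophages themselves. Of 9 inducing cytokines tested, none passed between mCAT and wt with or without pairing. Il1b averaged 205436 ± 51678 in mCAT and 202036 ± 31321 in wt, Il1a 68985 ± 18168 in mCAT and 68580.4 ± 20581.5 in wt, and Tnf 11511 ± 11818 in mCAT and 10520.4 ± 10283 in wt (SD, n = 7 each). Il17a was near the counting limit and averaged 15.8 ± 16.5 in mCAT and 36.3 ± 34.8 in wt. The whole of the 118 tested genes listed for cytokines, receptors, NF-kappaB, mRNA decay, other neutrophil attractants, early response and hypoxia and for the other ligands and neighbours had 1 paired call between mCAT and wt (0.847%, against 0.314% of all genes). This was the immediate early gene Btg2, an antiproliferative factor, which was lower in mCAT (49817 ± 6158) than in wt (87072 ± 16155; paired log2 difference -0.85, SE 0.08, limma adjusted p = 4.84e-05). The decay list held no call in 15 genes: Zfp36 averaged 39837 ± 6658 in mCAT and 35374 ± 8078 in wt, with a paired log2 difference of 0.15 (SE 0.08).

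Between the code series, the same lists had 15 calls in 118 genes (12.7%, against 2.71% of all genes), 9 higher and 6 lower in C2. The lists were chosen with earlier results known, so the larger share says nothing particular of them. Tnf had the largest difference among them: it ran from 12900 to 29776 in C2 and from 1892 to 3938 in C1, with a log2 difference of 2.76 (SE 0.22; limma adjusted p = 1.9e-06). Lif, a cytokine of the interleukin-6 family, was also higher in C2 (1.28, SE 0.27, adjusted p = 0.0153). Il1b and Il1a did not pass, with log2 differences of -0.30 (SE 0.18) and 0.24 (SE 0.22). The inducing cytokines thus had 2 of 9 higher in C2, with a median of -0.18 on the log2 scale, beside -0.01 over all genes.

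Nfkbiz, Nfkbia and Tnfaip3, which NF-kappaB itself induces, were higher in C2. Nfkbiz, the nuclear cofactor that NF-kappaB needs at part of its targets, ran from 18082 to 27048.5 in C2 and from 6665 to 12444 in C1 (log2 difference 1.33, SE 0.17, limma adjusted p = 0.000264). Nfkbia, the inhibitor IkappaB-alpha, ran from 46419 to 96101 in C2 and from 24414 to 39256 in C1 (1.14, SE 0.18, adjusted p = 0.00198). Tnfaip3, the deubiquitinase A20, ran from 17737 to 39633 in C2 and from 6798 to 13959 in C1 (1.23, SE 0.18, adjusted p = 0.00119). For these 3 genes and Tnf, every C2 library lay above every C1 library, and the share of all genes doing so was not counted. The NF-kappaB subunit genes Nfkb1, Nfkb2, Rela and Relb did not pass, with log2 differences from -0.37 to -0.15. In all, 1 of 9 factors and cofactors and 2 of 8 inhibitors and feedback genes passed, with medians of -0.20 and -0.09.

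Of the receptors and adaptors of the inducing signals, 3 passed: a decoy receptor, an adaptor and a Toll-like receptor. Il1r2, the interleukin-1 decoy receptor, ran from 520 to 2129 in C2 and from 3574 to 9990.1 in C1 (log2 difference -2.43, SE 0.31, limma adjusted p = 0.000274). Traf6, an adaptor shared by interleukin-1 and Toll-like receptors, was lower in C2 (-0.71, SE 0.15, adjusted p = 0.0153). Tlr4, the receptor for lipopolysaccharide, was also lower (-0.78, SE 0.20, adjusted p = 0.0452), but this held in only 3 of 14 fits that left out 1 library. In all, 3 of 21 receptors and adaptors passed, all 3 lower, with a median of -0.18.

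Among other neutrophil attractants, Csf3, the growth factor G-CSF, was higher in C2 (38.3 to 167 against 0 to 28.2 in C1; log2 difference 1.03, SE 0.22, limma adjusted p = 0.0175). Ltb4r1, the leukotriene B4 receptor, was lower (-1.88, SE 0.39, adjusted p = 0.0137), and so was Fpr2, a formyl peptide receptor (-1.01, SE 0.26, adjusted p = 0.0426), the call of which held in 3 of 14 fits that left out 1 library. The early response genes Egr1 (1.93, SE 0.15, adjusted p = 1.9e-06) and Dusp2 (2.01, SE 0.22, adjusted p = 6.04e-05) were higher in C2, while Fos and Dusp1 did not pass (0.15, SE 0.17, and -0.07, SE 0.20). None of the 15 decay genes and none of the 11 hypoxia and glycolysis genes passed, by limma with stem partners treated as correlated. With 1 value per stem, 5 of the 15 calls held: Tnf, Lif, Nfkbiz, Egr1 and Dusp2.

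**Figure D5:**
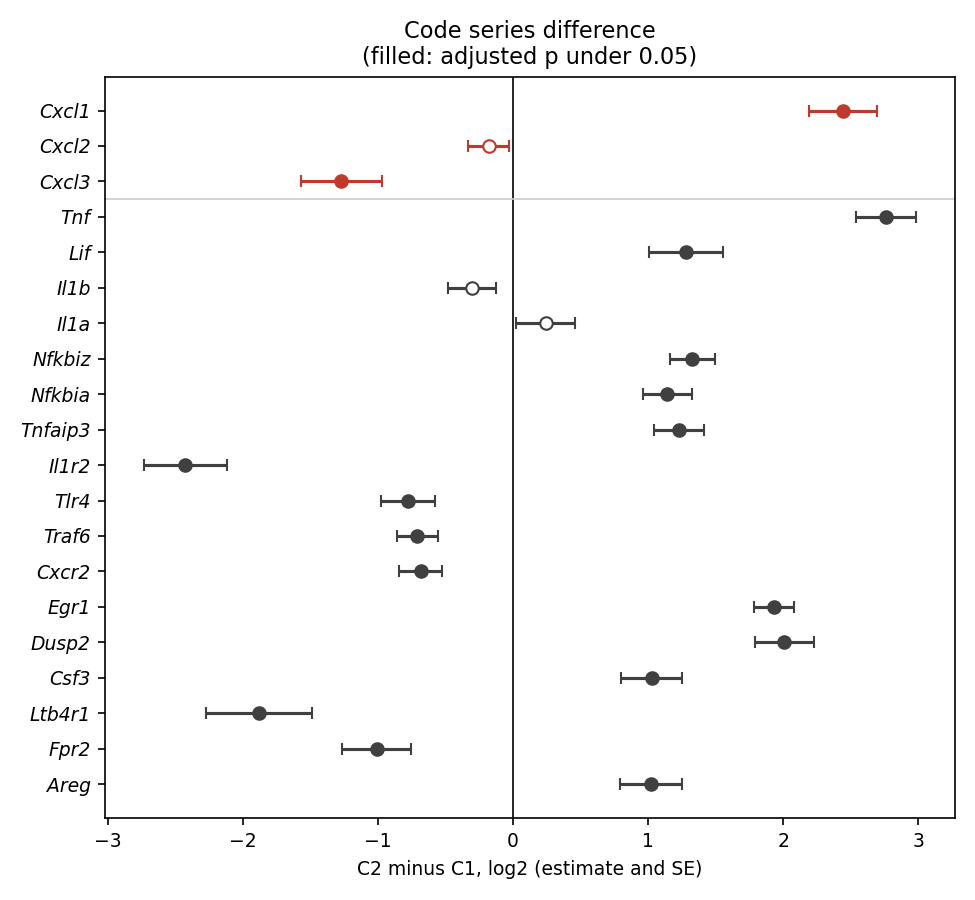
Difference between C2 and C1 libraries (x axis, log2; points are estimates, bars the SE) for the 3 chemokines (red) and for genes of the listed pathways; filled points passed an adjusted p of 0.05 over all genes. Cxcl1 (2.44) lies beside Tnf (2.76) on the side higher in C2, Cxcl3 (-1.27) on the side lower in C2 and Cxcl2 (-0.18) at neither.

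Markers of other cells were set beside these results, since neutrophils, glia and endothelium can also make the chemokines. The summed level of 18 neutrophil markers was 13095 to 43948 in mCAT and 13403 to 32571 in wt, and mCAT over wt was 0.965 to 1.35 between partners (higher in 5 of 6). On average most of it came from Mmp8 and Csf3r. Mmp8, neutrophil collagenase, was higher in mCAT with pairing (0.47, SE 0.09, limma adjusted p = 0.0332). The defining gene Ly6g stayed between 3.03 and 19.5 in mCAT and between 1.78 and 30.1 in wt, and Mpo and Elane were listed at 0 in some libraries of each genotype. Endothelial markers summed to 2004 to 4006 in mCAT and 1549 to 5177 in wt, and mCAT over wt was 0.794 to 1.29 between partners (higher in 5 of 6). Astrocyte markers summed to 903 to 2165 in mCAT and 797 to 1910.8 in wt, with mCAT over wt at 0.828 to 1.47 (higher in 4 of 6). T cell markers, a source of interleukin-17, summed to 200.4 to 517 in mCAT and 295 to 930.4 in wt, lower in mCAT in 6 of 6 pairs (0.442 to 0.935), and none of the 9 tested passed. Cxcl1 itself differed between partners by 3.04 to 8.62 times. Between the series, the sums ran from 13095 to 17599 in C2 and from 13403 to 43948 in C1 for neutrophils, from 797 to 1357 in C2 and from 1459 to 2165 in C1 for astrocytes and from 1549 to 3531 in C2 and from 2616 to 5177 in C1 for endothelium. None of these 3 sums had its highest value in C2. Other sums were higher in C2. Microglial markers summed to 45036 to 92273 in C2 and 18766 to 46882 in C1, B cell markers to 2662 to 5690 in C2 and 1445 to 2600 in C1 and macrophage markers to 1956540 to 4691890 in C2 and 1059540 to 1676940 in C1, without overlap for B cells and macrophages. Of the microglial genes, Cx3cr1 (1.96), Gpr34 (1.31) and Olfml3 (2.12) were called higher among 7 tested by limma (adjusted p of 0.000767, 0.00105 and 0.000236). Over all genes, 1.6% were called higher and 1.11% lower in C2. Cells were sorted on the CD45 alleles of the donors, the allele of the host is not stated, and macrophages also express Cx3cr1. The macrophage gene Lyz2 was higher in C2 (1.43, limma adjusted p = 0.00443) and the astrocyte gene Slc1a2 lower (-1.45, adjusted p = 0.000571). The B cell gene Cd22 was higher (1.29, adjusted p = 0.0261), a call that ended without mCAT 3, mCAT 6, mCAT 7 or wt 7. The neutrophil gene Lcn2 was lower (-1.36, adjusted p = 0.0409), the call of which held in 5 of 14 fits that left out 1 library. With 1 value per stem, none of these 7 marker calls held (limma adjusted p from 0.0534 to 0.216). Between the genotypes, the macrophage gene Ccr2, the locus of the Cre, was lower in mCAT (8391 ± 2975) than in wt (13742 ± 5015; SD, n = 7 each; paired log2 difference -0.80, SE 0.12, limma adjusted p = 0.00563). The part of these markers in the Cxcl1 and Cxcl3 results was not tested.

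The genes most like each chemokine were found by Pearson's r of the deposited log2 values over the 14 libraries, among 12096 genes, as a description. For Cxcl1 they were Eya4 (0.92), Zfp59 (0.89), Bmp2 (0.89), Ticam2 (0.89), an adaptor of Toll-like receptor 4, and Cadm1 (0.88), a cell adhesion molecule. With the genotype and series means removed, their r fell to between 0.27 and 0.56, so most of the likeness lay in those means. Their mean normalised counts ran from 15.1 (Bmp2) to 1349 (Ticam2) in mCAT and from 7.63 (Bmp2) to 1042.5 (Ticam2) in wt, and those of Cadm1 were 239 in mCAT and 48.2 in wt.

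For Cxcl3 the most alike were Il36g (0.92), an interleukin-1 family cytokine, Ndrg1 (0.91), a stress-response gene, Ykt6 (0.91), Anxa2 (0.90) and Gpat3 (0.90), an enzyme of triglyceride synthesis. With both means removed, their r was still 0.77 to 0.87. Being chosen for this likeness, these genes were given no test. For Cxcl2 the most alike were Ptprn (0.87), Syvn1 (0.83), Hikeshi (0.82), Vmp1 (0.81) and Gbp10 (0.81), with r of 0.75 to 0.88 once both means were removed. Cxcl1, Cxcl2 and Cxcl3 were themselves left out of these lists, so the lists cannot show how alike the chemokines are to one another.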

How the data were processed

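RNA of sorted macrophages was amplified by Smart-seq2 from polyadenylated RNA, a method that keeps no strand, and read as 150-base pairs, per the labels' protocols. The submitters' processing notes name FastQC, fastp, Salmon and GRCm39; versions and filters are not stated. Though its name says raw counts, the authors' table holds log2-scale values. All 14 libraries share 1 lowest value (5.96), the form of a variance-stabilising transformation, which was undone to give normalised counts. Depth was estimated from the spacing of low counts, of which 57.2% to 78.9% lay within 0.15 of a whole number. Genes with 10 normalised counts in 7 libraries (12096) were fitted with limma 3.58.1 (trend, robust; R 4.3.3) on the deposited log2 values, with Benjamini-Hochberg adjustment over all genes. The C2 against C1 and interaction fits took the stem as a random block (statmod 1.5.0). This replaces a count test, since no counts were used here. The fits were tested on simulated data with known changes. Whether replicates came from separate mice is not stated, so p-values measure the spread between these libraries.

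Stem partners deviated together from their genotype means (r = 0.23 to 0.66 over genes, 6 of 6 pairs), and pairing by stem was used. Partners also share C1 or C2, which these means do not remove, so r cannot separate a shared stem from a shared series. In C2_1 (r = 0.23), the partners were not each other's most alike library of the other genotype. Title numbers 4 to 7 join the same libraries as stems, and numbers 1 to 3 do not (r = -0.29 to 0.25). The title of wt 1 holds no number, and it was numbered 1 as the only number missing. The chemokines and the gene lists were chosen with earlier results of these data known. From each list, the rule for naming took genes that passed, the 3 most abundant and the 2 with the smallest p; the text gives those that passed and some of the others. RefSeq promoters (GRCm38.p6) and GENCODE transcripts were searched for motifs.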

Additional observations from a re-analysis of the deposited data

Results flagged for a closer look

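In wt, Cxcl3 of wt 4 (2215 normalised counts) stood apart from the next library (938), with a gap of 0.659 of the range of the 7 libraries; its partner mCAT 4 was the highest of mCAT (2367). The neutrophil marker sum of mCAT 1 (43948, next 24321) stood apart in mCAT, and so did that of its partner wt 2 (32571, next 21307) in wt. Cxcl1 in these 2 libraries was 729.9 and 221 normalised counts. In all, 16 groups of 7 were looked at. For normal values from 1 population, chance sets about 1 in 20 groups apart. These groups hold untransformed counts and pool C2 with C1, so that rate need not hold here.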

How the results depend on the processing

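The 3 genotype differences moved by less than 1 SD between libraries of a genotype in all settings tried. That SD was 1.38 log2 for Cxcl1, 0.22 for Cxcl2 and 0.91 for Cxcl3, a loose bound for Cxcl1 and Cxcl3. Cxcl1 ran from 1.70 to 2.31 with each library left out and from 1.77 to 2.08 with each stem left out. Cxcl3 ran from -0.06 to 0.44 with each library left out, so its sign was not fixed. Between mCAT and wt, 24 genes passed without pairing, 38 with the replicate block by stem and 18 to 25 with a library left out. Between C2 and C1, 328 genes passed, 903 with no block, 217 (without mCAT 3) to 616 (without wt 5) with a library left out and 17 with 1 value per complete stem, an alternative chosen after seeing the data, as was leaving out stems. Fewer values enter that last fit. Cxcl1 stayed called between the series in all 22 alternatives and Cxcl2 in none. Cxcl3 stayed called in 17 of 22, from -1.41 to -1.18 with a library left out, and was -1.39 without a call with 1 value per stem; the cause was not tested. The interaction of each chemokine stayed uncalled in 16 of 16. Depth limits statements on Cxcr1, Cxcl5 and Cxcr2, which lie near the counting limit. The planned correlations between members and between stem partners are not given, since the libraries fall into clusters of 3 or 4.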
